A study of Mus musculus with 6 samples.

Results

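The Myc, Max and Mad network is a family of transcription factors that share a basic helix-loop-helix leucine zipper and bind DNA as pairs. The genes taken here were Myc, Mycn, Max, Mxd1, Mxd3, Mxd4, Mxi1, Mnt, Mlx and Mga, and their probes were found by the gene symbol in the platform annotation. All 10 were named there, by 18 of the 45281 probes on the array, and 9 of the 10 genes with 12 probes were bright enough to be tested, out of 9478 genes and 15007 probes tested in all.

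Mvt-1 is a mouse mammary tumour line grown from tumours of mice that carried Myc and Vegf transgenes under the mouse mammary tumour virus promoter, so every group shares both transgenes, and the study used this 1 line. The cells were starved of serum for 16 h, and 3 samples then received insulin at 10 nM for 90 min while 3 received vehicle. Total RNA was read on single-colour Illumina beadchips with 1 array per sample, in a study of the insulin receptor in breast cancer, and the comparison asks which transcripts differ early after insulin. The labels do not say whether the 3 replicates of a group were separate cultures, so the p-values cover the scatter among these arrays, and that may be technical scatter.

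As background, Myc and its relative Mycn activate genes of growth and proliferation, but only when paired with Max. Max also pairs with the repressors Mxd1, Mxd3, Mxd4, Mxi1 and Mnt, which compete for the same DNA, and with Mga, a large repressor that carries a second DNA-binding domain. Mlx is a Max-like partner that joins the network to the glucose-sensing Mondo factors. In many cell types growth factors raise Myc transcripts early and transiently, and Mxd genes are often raised as cells leave the cycle.

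The pairs bind the E-box, whose letters are CACGTG and read the same on both strands. Promoter windows of 300 bases, 250 before to 50 after a transcript start, were taken from RefSeq on GRCm38.p6 for the 9 members listed there (Myc was not among them) and scanned for that motif alone. It stood in the windows of 4 of the 9 members, or 44.4%, against 8.09% of all 27025 genes with a window, 12.0% of the 7723 tested genes with a window and 7.15% of all 32851 windows. The windows of Mycn, Mxd1, Mxd3, Mga and all 3 of Mxi1 did not hold these letters. The 4 matches are shown with 12 bases on either side and the E-box in capitals, because the pairs bind this motif and these are genes of the network. A match describes the letters and not binding, which was not measured here.
Mnt: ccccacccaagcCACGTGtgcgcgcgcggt
Max: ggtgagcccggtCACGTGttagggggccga
Mlx: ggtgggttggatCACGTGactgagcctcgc
Mxd4: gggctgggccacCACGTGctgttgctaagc
The Mnt window lies at chr11:74830789-74830818 on the plus strand, with the E-box beginning 123 bases before the start of the transcript. That of Max, at chr12:76962234-76962263 on the minus strand, has the E-box beginning 3 bases before the start and running across it. For Mlx, at chr11:101087238-101087267 on the plus strand, the distance was 40 bases, and for Mxd4, at chr5:34187912-34187941 on the minus strand, it was 219 bases. The motif thus stood at a different distance in each of the 4 genes.

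Much of each array sat near background. Between 17617 and 18232 probes were detected per array, with a detection p under 0.05, and the lowest detected signal lay between 79.2 and 80.2. Across the genes tested, 44 of 9478 differed between insulin and vehicle (limma with Benjamini-Hochberg adjustment, threshold 0.05), 12 higher and 32 lower. The split was 13 and 16 with a background model fitted to the signals, 11 and 11 with the authors' deposited processed values and 16 and 25 with median scaling. Of 10 markers of mammary epithelial cells 5 were detected widely enough to be tested, Krt8 and Krt18 among them, while Epcam was not. The 16 named markers of other cells were 6 of fibroblasts, 4 of endothelial, 3 of immune and 3 of fat cells. Tested were 3 of the 6 fibroblast genes, Dcn, Pdgfra and Pdgfrb, and 0 of the others. Detected on all 6 arrays were 3 epithelial and 3 fibroblast genes. Of the 8 genes tested 0 passed the threshold in limma (1, Pdgfra, had an unadjusted p under 0.05). The summed signal of those 16 genes, with background left in, ran from 1604.7 to 1777.9 on the vehicle arrays. On the insulin arrays it ran from 1610.7 to 1651.9, and its part in the results was not tested.

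No member of the network passed the threshold at 90 min of insulin. The count was 0 of 9 genes tested, against 0.464% of all genes (1 member had an unadjusted p under 0.05, as did 1038 of the 9478 genes), and 0 of 12 probes, against 0.120% of all probes. For genes it was also 0 under each of the 14 alternatives run, and for probes under each of 13. The median log2 change of the 9 members was -0.035, beside -0.015 over all genes, with 3 positive and 6 negative. In 1 of 9 members, Mnt, the 3 insulin arrays lay apart from the 3 vehicle arrays, with insulin lower. Groups lay apart in 15.9% of all genes, 9.34% with insulin lower and 6.59% with insulin higher. Since whole cultures were measured, a change in RNA per cell and in the share of cells that make it cannot be told apart.

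**Figure D1:**
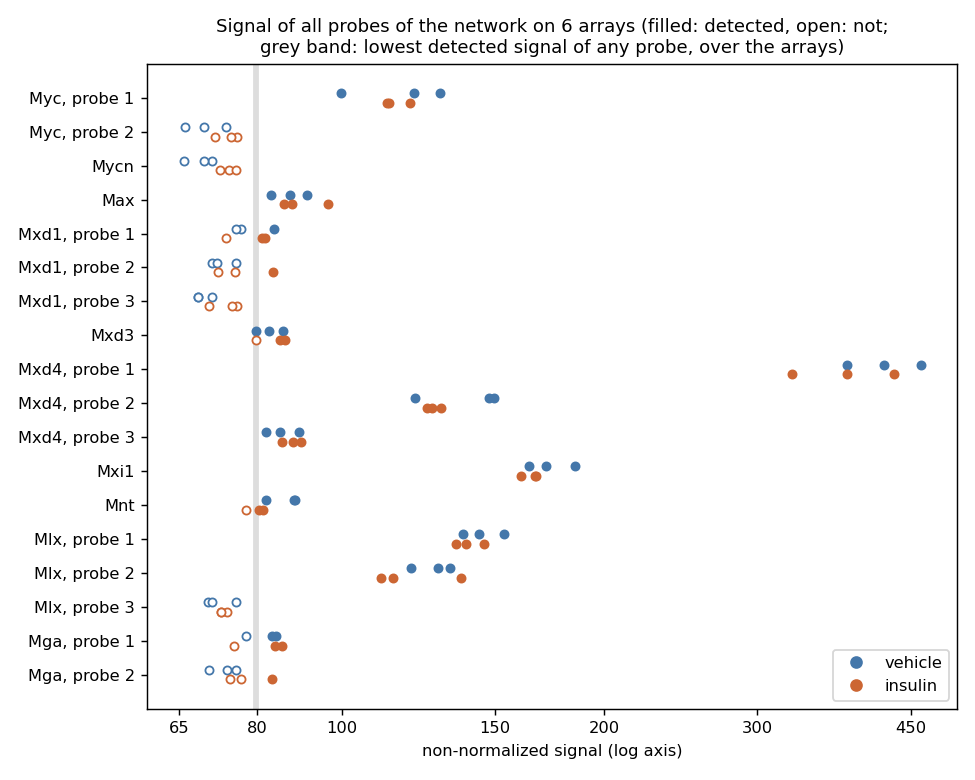
Non-normalized signal of all 18 probes of the network (log axis) on the 3 vehicle arrays (blue) and 3 insulin arrays (orange), 1 point per array. Filled points were detected (detection p under 0.05), open points were not, and the grey band from 79.2 to 80.2 is the lowest detected signal of any probe over the arrays. Of the 18 probes, 8 were detected on all 6 arrays and 4 on none, and the first probe of Mxd4 stands highest above the band.

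Myc was detected through 1 of its 2 probes, and at a low signal, in a line that carries a Myc transgene. The detected probe gave signals of 99.7, 120.9 and 129.7 on the vehicle arrays and 112.8, 119.7 and 113.3 on the insulin arrays. The vehicle arrays thus spanned the insulin arrays on both sides, with vehicle replicate 1 the lowest of all 6. After background correction, normalization and log2 the vehicle mean was 5.86 ± 0.36 (SD, n = 3) and the insulin mean 5.82 ± 0.073. This gave a log2 change of -0.035 ± 0.16 (standard error, limma adjusted p = 0.969), with a 95% interval from -0.37 to 0.30. On this scale, which adds 16 to each corrected intensity and so understates the change of dim genes, the interval holds a fall of up to 1.29-fold and a rise of up to 1.23-fold. Without vehicle replicate 1 the change was -0.24, and the sign turned without vehicle replicate 3, at 0.10. The other Myc probe gave signals between 66.1 and 75.7 and was detected on 0 of 6 arrays. Whether either probe also reads the transgene was not tested.

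Mycn, the relative of Myc best known from the developing nervous system, was detected on 0 of 6 arrays. Its single probe gave 71.0, 65.9 and 69.4 with vehicle and 72.4, 74.1 and 75.5 with insulin. All of these signals lay under the lowest detected signal of their array, so the gene was left out of the test.

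Max, the partner that Myc needs and that also pairs with the repressors, was detected on all 6 arrays but close to the limit. The signals were 82.9, 91.1 and 87.3 with vehicle and 85.9, 96.3 and 87.6 with insulin. The groups overlapped, and replicate 2 was the highest array in both. The means of the normalized log2 values were 4.88 ± 0.18 and 4.97 ± 0.20 (SD, n = 3 each), a log2 change of 0.089 ± 0.14 (limma adjusted p = 0.870, interval from -0.21 to 0.39).

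**Figure D2:**
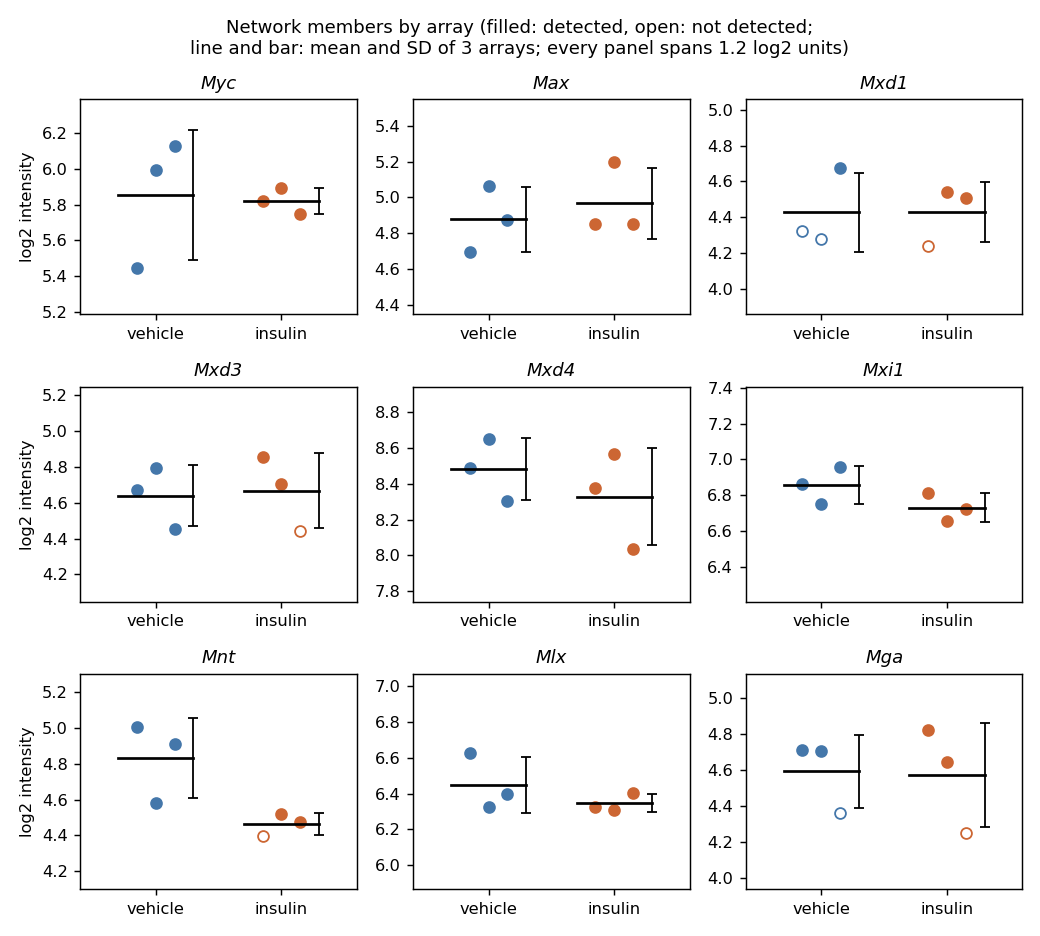
Normalized log2 intensity (vertical axis) of the 9 tested members on each array, with 3 vehicle arrays in blue and 3 insulin arrays in orange, for the brightest detected probe of each gene. Horizontal lines are group means and bars the SD of 3 arrays, filled points were detected and open points were not. The groups overlap in every panel except that of Mnt, where the lowest vehicle array is at 4.58 and the highest insulin array at 4.52.

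Mnt, the widely expressed repressor that competes with Myc for Max in cycling and resting cells alike, had the smallest p of the members. Its only probe gave signals of 88.4, 81.8 and 88.2 with vehicle and 77.7, 81.2 and 80.4 with insulin. Every insulin array was lower than every vehicle array, and the closest were vehicle replicate 2 and insulin replicate 2, at 4.58 and 4.52 on the normalized log2 scale. It was detected on 3 vehicle arrays and 2 insulin arrays, so the insulin values lay at the edge of detection. The log2 change was -0.37 ± 0.14, or 1.29-fold on that scale, with a 95% interval from -0.65 to -0.081. The unadjusted p was 0.0151 and the limma adjusted p 0.334, so Mnt did not pass over all genes, and 423 genes had a smaller p.

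The size of the Mnt difference varied with the processing. With the authors' deposited processed values, in which background was not removed, it was -0.12 ± 0.073 (limma adjusted p = 0.603). A background model fitted to the signals gave -0.15 and median scaling -0.21. The direction was negative in all 13 alternatives in which Mnt could be tested, and the change was -0.28 without vehicle replicate 1 and -0.49 without vehicle replicate 2. The adjusted p ran from 0.197 to 0.603 over these alternatives. Under the requirement of detection on all 6 arrays Mnt was not tested.

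Across the 6 arrays, the 3 genes whose log2 values followed those of Mnt most closely were Pdzk1ip1 (Pearson r = 0.996), Ino80b (r = 0.980) and Nek4 (r = 0.978), out of 9478 genes. Their own log2 changes were -0.48, -0.41 and -0.38, and 0 of the 3 passed the threshold (limma adjusted p = 0.199, 0.253 and 0.300). The points share their 6 arrays and the difference between groups, and the correlations are a description.

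Mxd4 belongs to the Mxd repressors, which dampen Myc targets as cells differentiate, and all of its probes were detected on all 6 arrays. The brightest, for which the probe annotation named no transcript, unlike the other Mxd4 probes, stood for the gene. This probe gave signals of 419, 462.2 and 380.6 with vehicle and 380.8, 430.2 and 328.8 with insulin. Insulin replicate 3 was the lowest and vehicle replicate 2 the highest, and in between the groups overlapped. The log2 change was -0.15 ± 0.15 (limma adjusted p = 0.771, interval from -0.47 to 0.16). It was -0.0072 without insulin replicate 3 and -0.27 without insulin replicate 2.

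The other Mxd4 probes differed in sign. The second, with signals of 149.6, 121.5 and 147.6 against 130.1, 127 and 125.1, had a log2 change of -0.24 ± 0.15 in the fit over all probes (limma adjusted p = 0.651). Its vehicle replicate 2 was the lowest of the 6 arrays, whereas the same array was the highest for the brightest probe. The third, at 81.8, 84.8 and 89.4 against 85.3, 87.9 and 89.8, stood at 0.093 ± 0.13 (adjusted p = 0.866). The groups overlapped for all 3 probes.

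Mxi1, a repressor of the same type also called Mad2, was detected on all 6 arrays through its single probe. The signals were 171.7, 164 and 185.5 with vehicle and 166.6, 160.7 and 167 with insulin. Vehicle replicates 1 and 3 were above all insulin arrays, and vehicle replicate 2 lay among them. The log2 change was -0.13 ± 0.12 (limma adjusted p = 0.776, interval from -0.39 to 0.14), and it was negative in all 14 alternatives, from -0.18 to -0.075.

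Mxd3, which in contrast to its relatives is expressed in proliferating cells, was dim. It gave 82.5, 85.6 and 79.6 with vehicle and 86, 85 and 79.7 with insulin, and replicate 3 was the lowest array in both groups. That insulin array was the only one of the 6 on which Mxd3 was not detected. Its log2 change was 0.027 ± 0.14 (limma adjusted p = 0.974, interval from -0.27 to 0.33).

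Mxd1, the founding Mad gene, was detected on at most 3 of the 6 arrays by any of its 3 probes. The brightest gave 76.6, 75.5 and 83.5 with vehicle and 73.7, 81.7 and 81 with insulin, and was detected on 1 vehicle array and 2 insulin arrays. Its log2 change was 0.0035 ± 0.14 (limma adjusted p = 0.997, interval from -0.30 to 0.30). The second probe was detected on insulin replicate 1 alone, with a signal of 83.3, and on that array the brightest probe was at its lowest. The third was detected on 0 arrays. With so few arrays above background, the values say little about the transcript's level in either group.

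Mga, the repressor with a T-box beside its helix-loop-helix, was detected on 4 of 6 arrays through the brighter of 2 probes. That probe gave 83.2, 84.1 and 77.7 with vehicle and 85.4, 83.7 and 75.2 with insulin. As with Mxd3, replicate 3 was the lowest array of both groups, and it was not detected in either. For Mga the log2 change was -0.021 ± 0.16 (limma adjusted p = 0.983, interval from -0.35 to 0.31). The dimmer probe was detected on insulin replicate 2 alone, at 83.1, and its other signals lay between 70.3 and 76.5.

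Mlx, the partner of the Mondo factors, was detected on all 6 arrays through 2 of its 3 probes. The brighter gave 153.5, 137.9 and 143.7 with vehicle and 135.2, 138.9 and 145.5 with insulin, with a log2 change of -0.10 ± 0.13 (limma adjusted p = 0.832, interval from -0.37 to 0.17). Without vehicle replicate 1, the highest of the 6 arrays, the change was -0.013, and without vehicle replicate 2 it was -0.16. The second gave 120.1, 128.9 and 133 against 114.4, 111 and 137.1, at -0.19 ± 0.15 in the fit over all probes (adjusted p = 0.727). In the second probe insulin replicate 3 was the highest of all arrays while the other two insulin arrays were the lowest, so the groups overlapped in both. The third probe was detected on 0 arrays.

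**Figure D3:**
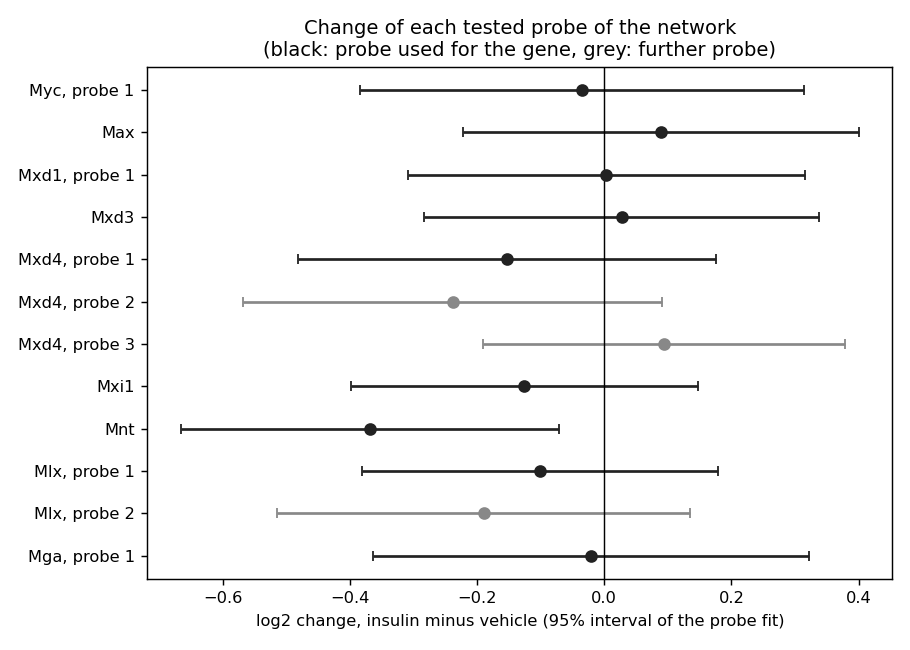
Log2 change of each of the 12 tested probes (horizontal axis, insulin minus vehicle), with the 95% interval of the limma fit over all 15007 probes. Black marks the probe used for the gene and grey a further probe. All intervals hold 0 except that of Mnt, and the 3 probes of Mxd4 stand at -0.15, -0.24 and 0.09.

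The precision was alike over the members. The 95% interval in the fit over genes reached 0.26 to 0.34 on the log2 scale to either side of the change. These intervals are not adjusted for the number of genes tested. For Myc, Max, Mxd1, Mxd3 and Mga the sign itself was not settled. It turned in 2 to 4 of the alternatives for each of these 5, whereas it held in all alternatives run for Mxd4, Mxi1, Mnt and Mlx. That does not settle the sign for Mxd4, Mxi1 and Mlx, whose 95% intervals held 0. Nor is it settled for Mnt, whose unadjusted limma p was under 0.05 in 8 of its 13 alternatives. Its interval held 0 with the authors' deposited processed values (-0.28 to 0.040) and with median scaling (-0.44 to 0.023), among others. The alternatives use the same arrays again.

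**Figure D4:**
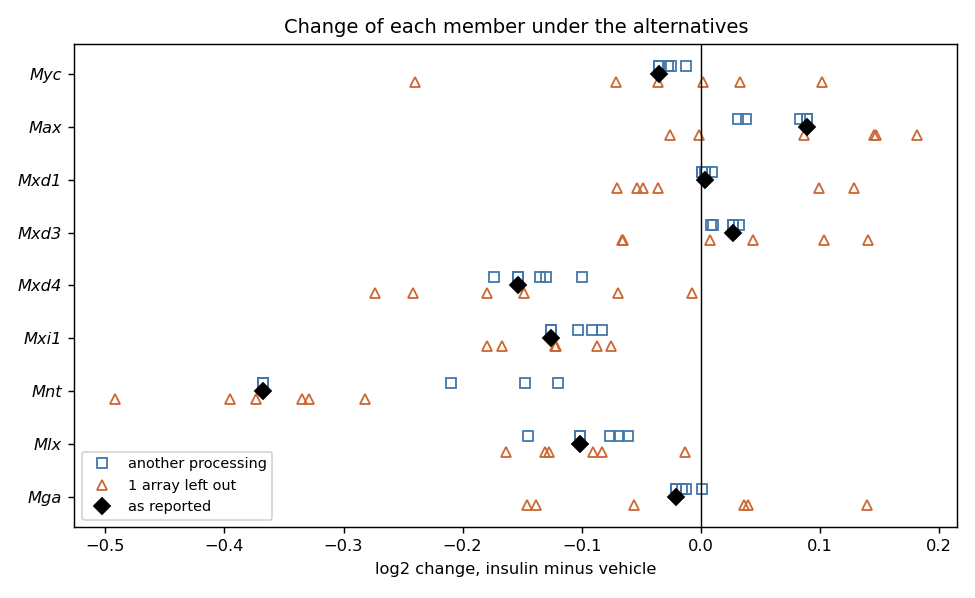
Log2 change (horizontal axis, insulin minus vehicle) of the 9 tested members as reported (black diamonds), under another processing (blue squares) and with 1 array left out (orange triangles). Mnt ranges from -0.49 to -0.12, Mxd4, Mxi1 and Mlx stay below 0, and the other 5 members fall on both sides of 0.

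Partners and regulators of Myc were described as a list of 34, with 30 named on the array and 27 tested. Of the 27, 0 rose and 0 fell in limma, against 0.464% of all genes called, and 1 of the 27 had an unadjusted p under 0.05, beside 1038 of all 9478 genes. A positive change was seen in 16 of 27, or 59.3% beside 46.0% of all genes, with a median of 0.012 beside -0.015. The groups lay apart in 0 of 27, beside 15.9% of all genes. Skp2, the ubiquitin ligase subunit that acts on Myc, had the smallest p. It stood at 4.95, 5.28 and 4.52 with vehicle and 5.65, 5.18 and 5.33 with insulin on the normalized log2 scale, so that 1 vehicle array lay among the insulin arrays. The log2 change was 0.47 ± 0.17 (limma adjusted p = 0.334). It was 0.27 without vehicle replicate 3 and 0.65 without vehicle replicate 2. With the authors' deposited processed values, in which background was not removed, it was 0.18. Skp2 was dim, with a vehicle mean of 4.92 beside 4.83 for Mnt. Cip2a, which stabilizes Myc by blocking a phosphatase, stood at -0.28 ± 0.14 and Usp36, a nucleolar deubiquitinase of Myc, at 0.19 ± 0.13, neither past the threshold. Over the alternatives Cip2a ran from -0.37 to -0.12 and Usp36 from 0.11 to 0.30. Mlxip, the Mondo partner of Mlx, was named after its value was seen and stood at 0.15 ± 0.13.

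Genes that Myc activates were listed as 36, of which 30 were tested. Again 0 rose and 0 fell in limma, against 0.464% of all genes called. An unadjusted p under 0.05 was reached by 7 of the 30 and by 1038 of all 9478 genes, and 19 of 30 had a positive change, or 63.3% beside 46.0% of all genes. The median log2 change was 0.082. In 6 of the 30 the groups did not overlap, or 20.0% beside 15.9% of all genes, 5 with insulin above (6.59% of all genes) and 1 below (9.34%). Ddx21, Nip7 and Rrs1 had the smallest p of the list. Polr1c, a subunit of RNA polymerases I and III chosen after its value was seen, was the one with insulin below, at -0.42 ± 0.13 (limma adjusted p = 0.246). Ddx21, a nucleolar RNA helicase, was at 9.63, 9.55 and 9.78 with vehicle and 10.19, 10.09 and 10.16 with insulin, a log2 change of 0.49 ± 0.12 (limma adjusted p = 0.112). All 3 insulin arrays of Ddx21 lay above all vehicle arrays, while for Myc itself the insulin values lay within the vehicle range. Whether the changes of Ddx21 and Myc differ was not tested. Nip7, a ribosome assembly factor, stood at 0.53 ± 0.13 and Rrs1, a regulator of ribosome synthesis, at 0.62 ± 0.16 (both limma adjusted p = 0.113). The change of Rrs1 was 0.29 with normexp fitted to the signals at an offset of 50 (limma adjusted p = 0.272). It was 0.24 with the authors' deposited processed values, in which background was not removed (limma adjusted p = 0.310). Both scales make the change of dim genes smaller. Over 14 alternatives the call was made 3 times for Ddx21 and once each for Nip7 and Rrs1. These 30 genes have other regulators beside Myc, and Myc protein was not measured here.

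Targets of Mlx and the Mondo factors included Txnip, which restrains glucose uptake and is 1 of the 44 genes called. Of 9 listed, 5 were tested, 1 fell (0.338% of all genes did) and 0 rose (0.127%). The median log2 change was 0.18 beside -0.015 over all genes, with 4 of 5 positive beside 46.0% of all genes, and the groups lay apart in 2 of 5 beside 15.9%. Txnip stood at 10.05, 9.96 and 10.19 with vehicle and 9.39, 9.40 and 8.97 with insulin, a log2 change of -0.81 ± 0.14 (limma adjusted p = 0.0213). All of the insulin arrays were below all of the vehicle arrays. The call was lost without vehicle replicate 1 (limma adjusted p = 0.0628), vehicle replicate 2 (0.0739) or vehicle replicate 3 (0.124), and without the filter on dim probes (0.145), at changes from -0.86 to -0.75. Arrdc4, an arrestin relative and a further Mondo target, was named after its value was seen and stood at 0.11 ± 0.13 (adjusted p = 0.821). Txnip also has other regulators, and the difference between these 2 genes was not tested.

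Genes that Myc represses were listed as 8, with 4 tested, and 0 rose and 0 fell in limma, against 0.464% of all genes called. An unadjusted p under 0.05 was reached by 0 of the 4, and by 1038 of the 9478 genes. Cdkn1a, the cell cycle inhibitor p21, stood at 0.25 ± 0.14, Gadd45a, a stress-induced growth arrest gene, at -0.14 ± 0.14 and Ndrg1, a gene of differentiation and hypoxia, at -0.12 ± 0.13. With 1 array left out the change of Cdkn1a ran from 0.12 (without insulin replicate 2) to 0.39 (without insulin replicate 3). That of Gadd45a ran from -0.22 (without insulin replicate 3) to -0.0065 (without insulin replicate 1). For Ndrg1 it ran from -0.18 (without insulin replicate 3) to -0.046 (without vehicle replicate 1). The median log2 change of the 4 was -0.037. With the mean of a gene's detected probes in place of the brightest, Cdkn1a stood at 0.24, Gadd45a at -0.25 and Ndrg1 at -0.024. Cdkn1a then had an unadjusted limma p of 0.040 (adjusted p = 0.408), and none of these passed the threshold.

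**Figure D5:**
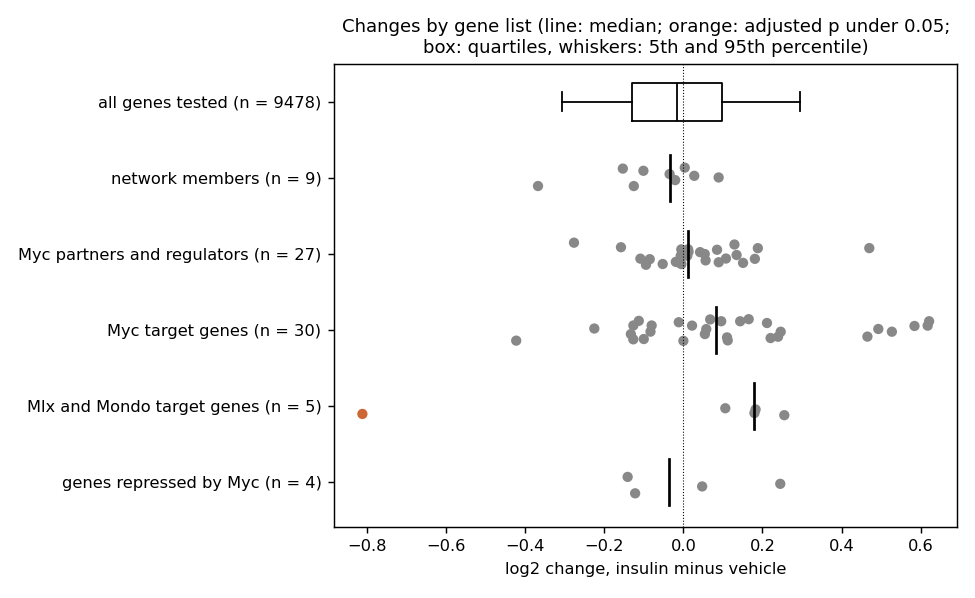
Log2 change (horizontal axis, insulin minus vehicle) of each tested gene in 5 gene lists, 1 point per gene with the list's median as a line. The box at the top gives the quartiles of all 9478 genes tested, and its whiskers the 5th and 95th percentiles. Orange marks an adjusted p under 0.05, which is Txnip alone, and the 9 network members lie between -0.37 and 0.09.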

How the data were processed

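In the authors' deposited table of non-normalized values each probe had a linear signal intensity on each array and beside it a detection p-value, per the file headers. GenomeStudio is named in the submitters' processing notes, with no version given. The authors' deposited processed intensity values equal a quantile normalization of those signals to within 3.33e-06, with background left in. Signals were corrected with limma's neqc (limma 3.58.1, R 4.3.3, offset 16, background from the detection p-values), quantile normalized and put on the log2 scale. Probes entered the test with 1 gene symbol and a detection p under 0.05 on 3 or more of the 6 arrays. The brightest such probe stood for a gene, and a second fit took every probe. Insulin was compared with vehicle by two-sided limma (lmFit, eBayes), adjusted by Benjamini and Hochberg over all genes or probes, without the replicate number. The limma step was tested on simulated data with known changes. It recovered 36% of the changes of 0.5 log2 (54 of 150), 90% of those of 0.75 and 100% of those of 1. Arrays left out in the alternatives were left out of the fit but not of normalization and filter. The normexp alternative used an offset of 50, and in median scaling 16 was added a second time after background correction.

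Named were all 10 members, from each other list up to 4 called genes or else the 3 with the smallest p, and the 3 genes most like Mnt. Members and lists were chosen with earlier results of these data known. Slide and scan date were not used. The number of arrays limits the precision.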

Additional observations from a re-analysis of the deposited data

How the results depend on the processing

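The count of network members called was 0 in each of the 14 alternatives, while the counts over all genes and probes moved. The 44 genes became 29 with normexp fitted to the signals, 22 with the authors' deposited processed values, 83 with a trended and robust variance, 75 with the replicate block and 2 to 67 with 1 array left out (2 without vehicle replicate 2, 67 without insulin replicate 3). Without the filter on dim probes limma called 0 genes (1645 at an unadjusted p under 0.05) and 0 probes (2656). The 18 probes called became 30 with normexp, 79 with the trended variance, 67 with the replicate block and 0 to 58 with 1 array left out. Deviations of same-numbered arrays from their group means correlated at 0.0901, 0.152 and 0.131, and each vehicle array correlated best with its own number, a hint from the data and not the design. With the replicate block Mnt stayed at -0.37 (limma adjusted p = 0.249) and Rrs1 passed (0.0346). The change of Mga turned to 0.0016 with median scaling. With 1 array left out it ran from -0.15 to 0.14 for Mga, -0.24 to 0.10 for Myc, -0.026 to 0.18 for Max, -0.070 to 0.13 for Mxd1 and -0.066 to 0.14 for Mxd3. The cause was not tested. Signal over background limits Mnt, Mxd1, Mxd3, Mga and Max most.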

Other observations

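Of the 7723 tested genes with a promoter window, 927, or 12.0%, held the E-box letters CACGTG. The median log2 change was -0.0084 for these 927 genes and -0.017 for the other 6796, with quartiles from -0.13 to 0.11 and from -0.13 to 0.098. Limma called 6 of the 927 genes with the motif, or 0.647%, and 29 of the 6796 without it, or 0.427%, beside 0.464% of all genes tested. Of 30 listed Myc target genes with a window, tested or not, 7 held the motif, or 23.3%, beside 8.09% of all genes with a window. Of the 25 tested Myc targets with a window 7 held it, or 28.0%, beside 12.0% of all tested genes with a window. Cdk4, the kinase of the D cyclins, held it 4 times.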
